A study of Homo sapiens with 6 samples.

Results

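The solute carrier (SLC) genes encode membrane proteins that move sugars, amino acids, nucleosides, ions, metals and many metabolites across the plasma membrane and the membranes of organelles. Every row of the deposited mRNA table whose symbol is SLC followed by a digit was taken, which gave 149 of the 8529 genes. Of these, 144 were counted as carriers, among them SLC3A2, a heavy chain that pairs with carriers, and 5 only carry the letters in their name. The carriers were sorted into classes by substrate, and with the 5 that are not carriers there were 13 classes. Expression was measured as FPKM (fragments per kilobase of transcript, scaled by sequencing depth), and 99 of the 149 genes had a mean of at least 1 FPKM over the 6 libraries.

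An SLC carrier works without burning ATP itself. It lets a solute run down its own gradient, couples it to a gradient of sodium, protons or chloride, or swaps one solute for another. In the intestine, carriers of the brush border take up sugars and amino acids from the lumen, while tumour cells of the colon are known for large amounts of glucose, glutamine and lactate carriers. Carriers of the SLC25 family sit in the inner mitochondrial membrane, and those of the SLC35 family mostly in the endoplasmic reticulum and Golgi.

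The cells were SW480, an established line of human colorectal adenocarcinoma, of WT genotype in all libraries. They were seeded on plates coated with a hydrogel of 2 kPa (soft) or 25 kPa (stiff) and kept for 72 h at 37 °C without CO2, with 3 libraries of total RNA at each stiffness. The line is maintained in Leibovitz's L-15, a medium that supplies galactose in place of glucose, with fetal bovine serum and L-glutamine. No drug or gene was varied. It is 1 cell line, grown in triplicate wells per stiffness, and nothing says that the wells came from separately grown cultures, so p-values measure only the spread between these samples, which may be technical. In bulk RNA, fewer cells with a transcript and less transcript per cell cannot be told apart. The depth of the libraries is unknown, because the values are FPKM without read counts.

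Of 16 epithelial colon markers, 9 were in the table, and their summed level was between 4507 and 4839 FPKM at 2 kPa and between 3702 and 4878 FPKM at 25 kPa. Keratin 18 and keratin 19 made up most of it, while KRT20 and CDX1 were at most 0.24 FPKM in every library. At an unadjusted p of 0.05, 2 of the 9 were lower at 25 kPa (3.19% of all genes were), ASCL2 (26.2 and 13.2 FPKM, adjusted p = 0.0759) and CDX2 (0.677 and 0.217 FPKM, adjusted p = 0.224). These and KRT19 (1562 and 1132 FPKM, adjusted p = 0.537) had lower values in every stiff library than in any soft one. Of all genes, 4.78% were lower in this way. The 4 fibroblast markers present summed to between 0.84 and 2.22 FPKM at 2 kPa and between 2.93 and 3.2 FPKM at 25 kPa, and CD14, the 1 immune or endothelial marker present, lay between 0.17 and 1.83 FPKM. Of the fibroblast markers, ACTA2 was higher at an unadjusted p of 0.05 (6.96% of all genes were), with means of 1.17 and 2.35 FPKM. CD14 was lower at that threshold (3.19% of all genes were), with means of 1.23 and 0.53 FPKM and overlapping groups. The part of these markers in the SLC values was not tested. The second library at 2 kPa stood apart. Its SLC genes summed to 1.54% of all FPKM, against 1.04% to 1.14% in the other 5 libraries, and it was the highest library of its group for 82 of the 149 SLC genes (55.0%) and for 49.0% of all genes. Its total over all genes was also the lowest, 201030 FPKM against 231714 to 263028 FPKM, which raises that share. Other libraries deviated as well. The second library at 25 kPa had the highest total. Its deviation from the other stiff libraries rose with the share of G and C bases in the transcript. The correlation r was 0.304 over all genes and 0.456 over the SLC genes. The deviation of the third library at 25 kPa fell with that share (r = -0.251 over all genes and -0.339 over the SLC genes). The value without the second library at 2 kPa is given for some of the genes that its removal moved, but not for all of them.

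Mean levels of the SLC genes ran from 0.0117 FPKM for SLC22A11 to 513 FPKM for SLC1A5. Means under 0.1 FPKM were found for 6 genes, from 0.1 to 1 for 44, from 1 to 10 for 69, from 10 to 100 for 25 and of 100 or more for 5. Those 5 were the glutamine carrier SLC1A5 with a mean of 513 FPKM, the glucose carriers SLC2A3 with 450.4 FPKM and SLC2A1 with 427 FPKM, the mitochondrial ADP/ATP carrier SLC25A5 with 271 FPKM and the leucine carrier SLC7A5 with 145 FPKM. Together they held from 65.3% to 69.3% of the summed SLC level in each library. SLC1A5 alone held from 12.8% to 26.1% of that sum, and the first 20 genes held from 81.7% to 83.7%.

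**Figure D1:**
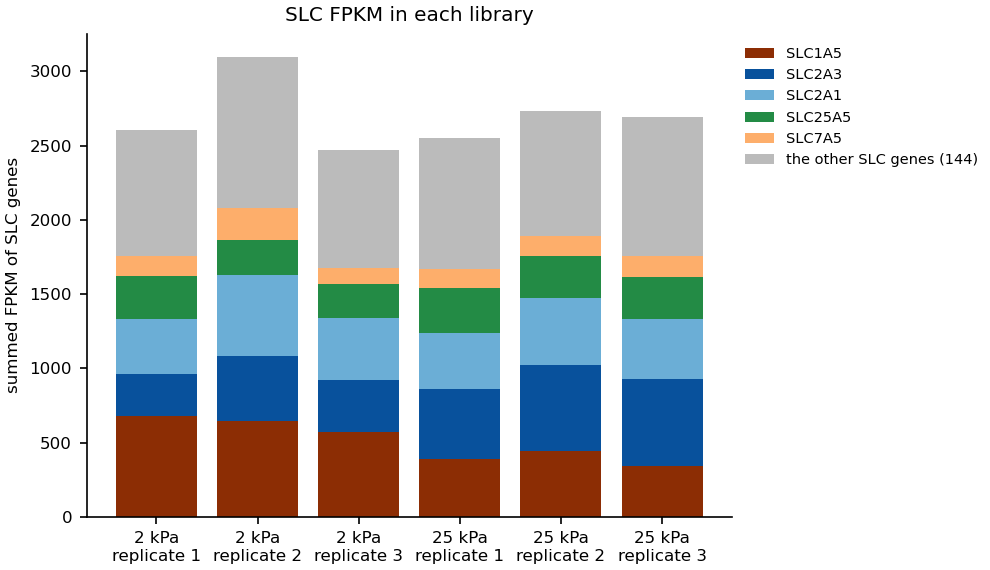
Summed FPKM of the 149 SLC genes in each of the 6 libraries, stacked by the 5 genes of highest mean level and the other 144 together (y axis in FPKM from 0). The tallest bar is the second library at 2 kPa, with 3099 FPKM against 2472 to 2731 FPKM in the others, and the SLC1A5 block is shorter in all 3 libraries at 25 kPa.

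The comparison asked which genes differ between cells on a stiff and on a soft matrix. No SLC gene passed an adjusted p of 0.05 (limma, Benjamini-Hochberg over all 8529 genes), where 10 genes of the whole table did (0.117%). The lowest adjusted p of an SLC gene was 0.198, for SLC1A5, which ranked 109 among all genes by p. At an unadjusted p of 0.05, 11 SLC genes (7.38%) were found, against 10.2% of all genes. Of these, 7 were higher at 25 kPa (4.7%, against 6.96% of all genes) and 4 were lower (2.68%, against 3.19%).

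The higher ones were SLC2A3, SLC7A11, SLC25A40, SLC35A5, SLC39A1, SLC4A1AP and SLC9A3R2, and the lower ones SLC1A5, SLC16A3, SLC16A5 and SLC30A2. In 19 SLC genes (12.8%) the 3 libraries of one stiffness did not overlap with the 3 of the other, against 16.0% of all genes. Of these, 10 were higher at 25 kPa (6.71%, against 11.2%) and 9 were lower (6.04%, against 4.78%). An exact permutation test of 3 against 3 libraries cannot go below p = 0.1 for a single gene. Every share except that of lower, non-overlapping genes was thus below its background, and none of these counts sets the SLC genes apart.

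The split between higher and lower depended on scaling. On the FPKM as deposited, 68.6% of all genes at an unadjusted p of 0.05 were higher at 25 kPa, and the share was 42.7% when libraries were rescaled to equal sums, 51.1% with quantile normalisation and 49.9% with centring on the median. For the SLC genes, 7 higher and 4 lower became 3 and 4, 4 and 8, and 4 and 8 in that order. Without the second library at 2 kPa, 13 were higher (8.72%, beside 8.50% of all genes) and 3 lower (2.01%, beside 2.77%). SLC1A5, SLC2A3, SLC7A11, SLC16A3, SLC16A5, SLC25A40, SLC30A2, SLC35A5 and SLC39A1 kept their sign under each of the 3 scalings, but not all stayed at an unadjusted p of 0.05. SLC35A5 and SLC4A1AP passed it under none of the 3, SLC2A3 missed it after quantile normalisation, SLC7A11 and SLC25A40 with equal library sums and SLC9A3R2 with centring on the median.

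**Figure D2:**
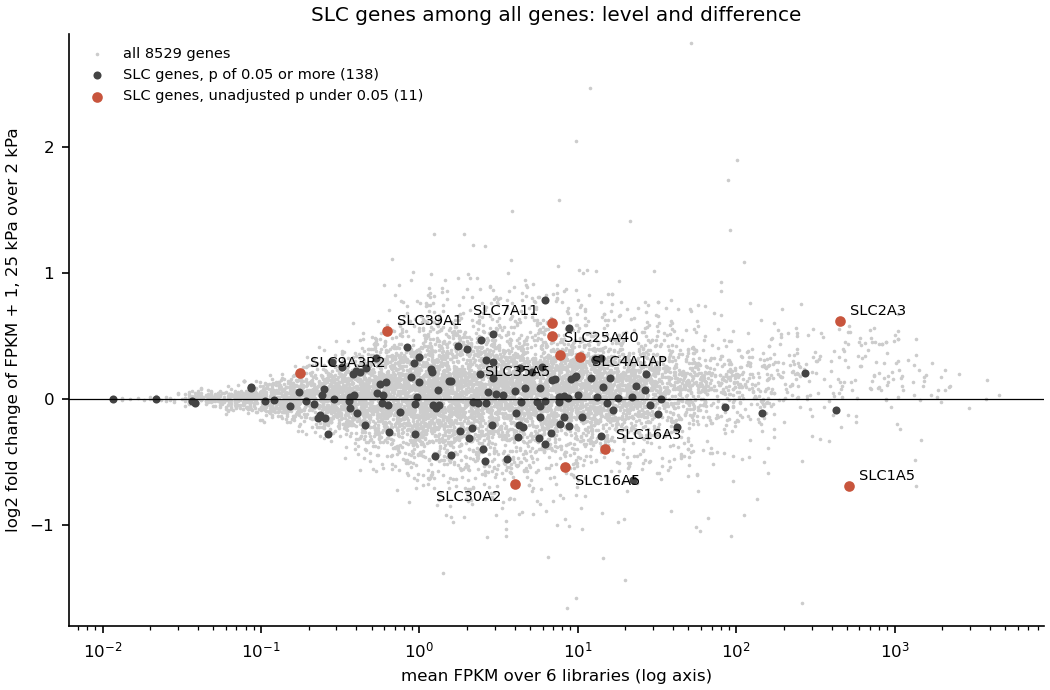
Mean FPKM over the 6 libraries (x axis, log scale) against the log2 fold change of FPKM + 1 at 25 kPa over 2 kPa (y axis) for all 8529 genes in grey and the 149 SLC genes in dark, with the 11 at an unadjusted p of 0.05 in red and named. SLC2A3 and SLC1A5 lie far to the right on opposite sides of 0, and the other dark points lie within the grey cloud.

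The sugar class held 7 genes, 3 of them with a mean of at least 1 FPKM. SLC2A3, known as GLUT3, is a glucose carrier of high affinity best known from neurons. It measured 282, 438 and 353 FPKM at 2 kPa and 469.9, 574 and 586 FPKM at 25 kPa. All 3 stiff libraries were above all 3 soft ones. The means were 358 ± 78.1 and 543 ± 63.8 FPKM (SD, n = 3), and the log2 fold change was 0.62 (SE 0.19, unadjusted p = 0.0117, adjusted p = 0.324 by limma). Leaving out 1 library at a time gave values from 0.46 to 0.77, and the 3 scalings gave values from 0.40 to 0.57.

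SLC2A1, known as GLUT1, is the widespread glucose carrier that many tumours carry in abundance. Its FPKM was 368, 543 and 414 at 2 kPa and 377, 456 and 404 at 25 kPa, so the groups overlapped. The log2 fold change was -0.08 (SE 0.18, adjusted p = 0.929), and it turned to 0.08 when the second library at 2 kPa, the highest of the 6, was left out. SLC2A3 was thus below SLC2A1 in every soft library and above it in every stiff one.

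A ratio taken within a library does not change when all values of the library are multiplied by 1 factor. The FPKM ratio of SLC2A3 to SLC2A1 was 0.765, 0.806 and 0.854 at 2 kPa and 1.25, 1.26 and 1.45 at 25 kPa, with means of 0.808 ± 0.0442 and 1.32 ± 0.114 (SD, n = 3). All 3 stiff libraries were above 1 and all 3 soft libraries below it. Of 7 pairs of carriers with related substrates or shared subunits that were compared in this way, it was the 1 pair without overlap, and the pairs were chosen after gene values had been seen. The values are therefore a description, without a test.

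SLC2A14, a near copy of SLC2A3, complicates the reading of the SLC2A3 level. Of the 50-base words of the longest SLC2A3 coding transcript in GENCODE 29, 24.1% also occur in another gene, most of them in SLC2A14. The longest run the 2 coding sequences share is 137 bases. The following 90 coding bases, starting at base 1129 of SLC2A3 and 1246 of SLC2A14, show why short reads cannot always be assigned:
SLC2A3: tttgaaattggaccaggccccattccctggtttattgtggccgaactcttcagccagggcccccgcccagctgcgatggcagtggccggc
SLC2A14: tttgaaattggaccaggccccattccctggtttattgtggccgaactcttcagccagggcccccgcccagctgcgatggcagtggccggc

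SLC2A14 had 0 differences from SLC2A3 in this window. How the authors counted reads with more than 1 match is not given in the sources used here. SLC2A14 itself was listed at 0.23, 0.34 and 0.35 FPKM at 2 kPa and at 0.49, 0.23 and 0.91 FPKM at 25 kPa, with overlapping groups.

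The other sugar carriers were low. SLC5A1, the sodium-coupled glucose carrier of the intestinal brush border, measured 0.19, 0.79 and 0.22 FPKM at 2 kPa and 0.18, 0.10 and 0.12 FPKM at 25 kPa. The groups did not overlap, but 0.18 and 0.19 nearly touched, and the log2 fold change was -0.28 (SE 0.15, adjusted p = 0.579). It went to -0.09 without the second library at 2 kPa. SLC37A4, the glucose-6-phosphate carrier of the endoplasmic reticulum, had a mean of at least 1 FPKM and overlapping groups, and the insulin-responsive SLC2A4 lay between 0.19 and 0.35 FPKM.

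The other genes of glucose use were examined as a list of 20 glycolysis enzymes, of which 11 were in the table. None was at an unadjusted p of 0.05 (10.2% of all genes were) and none passed the adjusted threshold. Their median log2 fold change was 0.06, beside 0.05 for all genes. The groups did not overlap in 0 of the 11, beside 16.0% of all genes. The 2 of lowest p were LDHA, which makes lactate from pyruvate, with a log2 fold change of 0.22 (SE 0.15, adjusted p = 0.691), and TPI1, triosephosphate isomerase, with 0.63 (SE 0.46, adjusted p = 0.711). PKM, HK1 and LDHB were among the enzymes absent. Mean levels ran from 0.413 FPKM for PFKL to 705 FPKM for ENO1, with GAPDH at 1.86 and ALDOA at 2.25 FPKM. Whether the deposited values hold the full level of each gene was not tested. Comparisons of level between genes in this report therefore describe these FPKM only.

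**Figure D3:**
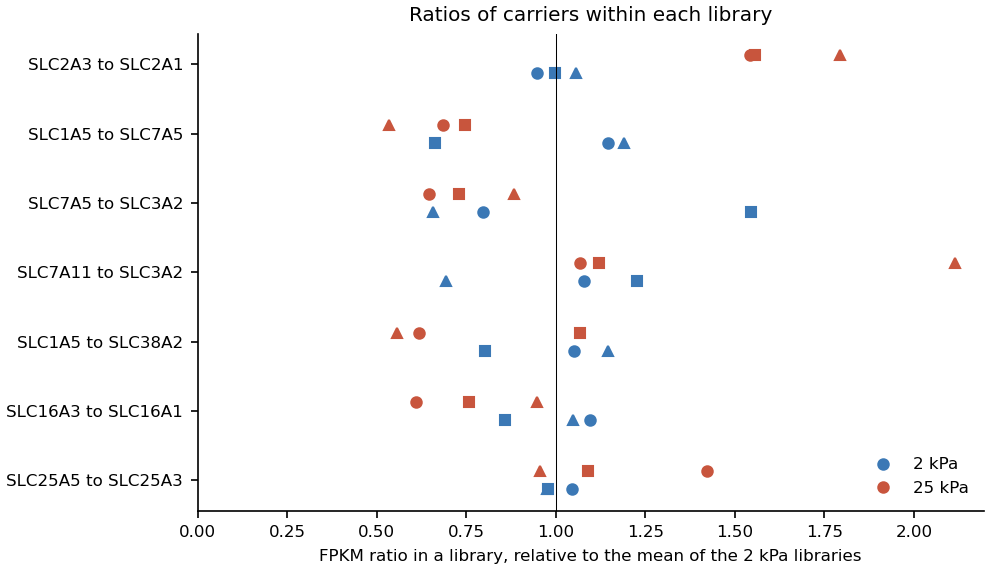
FPKM ratios of 7 pairs of carriers in each library, divided by the mean ratio at 2 kPa (x axis, no unit), with blue for 2 kPa, red for 25 kPa and circle, square and triangle for replicates 1, 2 and 3. The ratio of SLC2A3 to SLC2A1 separates the 2 stiffnesses, and the other 6 pairs overlap.

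Carriers of amino acids and peptides formed a class of 26 genes, 17 of them with a mean of at least 1 FPKM. SLC1A5 (ASCT2) exchanges neutral amino acids and is a main entry of glutamine in tumour cells. It was the SLC gene of highest level and lowest p, with 681, 647 and 569 FPKM at 2 kPa and 389, 446 and 344 FPKM at 25 kPa. Every stiff library was below every soft one. The means were 632 ± 57.3 and 393 ± 51.2 FPKM (SD, n = 3), and the log2 fold change was -0.69 (SE 0.16, unadjusted p = 0.00253, adjusted p = 0.198 by limma).

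Over the 14 alternative settings the adjusted p of SLC1A5 ran from 0.0807 to 0.604, and with 1 library left out the log2 fold change ran from -0.78 to -0.60. None of the 50-base words of its longest coding transcript occurs in another gene of that annotation. Its start region is printed below, together with that of SLC2A1, as the pair of most abundant plasma membrane carriers with an entry in the RefSeq promoter table. Each is 300 bases, from 250 upstream to 50 downstream of the start, in GRCh38.p14, given 5′ to 3′ on the strand of the gene, which is the reverse strand for both. The SLC1A5 region is chr19:46788545-46788844, the first of 3 entries for the gene, and the SLC2A1 region is chr1:42958819-42959118. Capitals mark the GC box, spelled GGGCGG, or a TATA box, which is spelled TATAAA, on either strand:
SLC1A5: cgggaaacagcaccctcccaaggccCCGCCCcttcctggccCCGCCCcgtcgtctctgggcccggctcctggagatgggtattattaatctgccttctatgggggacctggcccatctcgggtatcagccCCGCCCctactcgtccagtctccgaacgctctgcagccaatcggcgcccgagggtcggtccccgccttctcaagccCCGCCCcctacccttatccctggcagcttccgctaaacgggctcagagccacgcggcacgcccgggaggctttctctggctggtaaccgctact
SLC2A1: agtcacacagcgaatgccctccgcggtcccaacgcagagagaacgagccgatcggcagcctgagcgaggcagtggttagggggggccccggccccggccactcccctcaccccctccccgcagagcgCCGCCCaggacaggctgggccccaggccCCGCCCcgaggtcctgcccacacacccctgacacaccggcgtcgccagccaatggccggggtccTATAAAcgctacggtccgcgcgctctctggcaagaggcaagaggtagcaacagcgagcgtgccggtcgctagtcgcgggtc

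The SLC1A5 region held 4 GC boxes and 0 TATA boxes, and the SLC2A1 region 2 GC boxes and 1 TATA box. GGGCGG was present in the promoters of 86 of the 117 SLC genes with an entry (73.5%), and in 44.6% of all 27305 promoters of the same length. TATAAA was present in 5 of the 117 (4.27%), and in 11.95% of all promoters. The 27305 promoters include those of genes outside the expression table, whereas the 117 all belong to genes in it. The shares are therefore not of like sets, and they do not show a trait of the SLC genes. These are matches of letters, and their part in the levels was not tested. The table has no entry for SLC2A3 or SLC7A11.

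SLC7A5 (LAT1) exchanges large neutral amino acids such as leucine, and pairs with the heavy chain SLC3A2, which brings it to the cell surface. SLC7A5 measured 134, 220.0 and 108 FPKM at 2 kPa and 128, 135 and 145 FPKM at 25 kPa. The stiff libraries lay inside the range of the soft ones, and the log2 fold change was -0.11 (SE 0.23, adjusted p = 0.923), or 0.18 without the second library at 2 kPa. SLC3A2 measured 26.8, 22.7 and 26.1 FPKM at 2 kPa and 31.7, 29.4 and 26.2 FPKM at 25 kPa. Its log2 fold change was 0.20 (SE 0.12, adjusted p = 0.641), with the lowest stiff library inside the soft range.

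SLC7A11 (xCT), the second light chain of SLC3A2 considered here, brings in cystine in exchange for glutamate and feeds glutathione synthesis. Its FPKM was 6.06, 5.85 and 3.79 at 2 kPa and 7.10, 6.91 and 11.6 at 25 kPa. The stiff libraries were all above the soft ones, with replicate 3 at 25 kPa well above the other 2. The log2 fold change was 0.60 (SE 0.24, unadjusted p = 0.0366, adjusted p = 0.448), and 0.38 at the lowest with 1 library left out. The ratio of SLC7A11 to SLC3A2 overlapped between the groups, with means of 0.21 ± 0.0579 and 0.301 ± 0.124 (SD, n = 3).

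SLC38A2, a sodium-coupled carrier of glutamine and alanine that cells induce when amino acids run short, lay between 34.7 and 56.2 FPKM at 2 kPa and between 29.2 and 44.0 FPKM at 25 kPa (log2 fold change -0.22, SE 0.21, adjusted p = 0.803, and -0.05 without the second library at 2 kPa). SLC7A8 (LAT2), chosen after its values were seen, measured 19.0, 43.4 and 21.0 FPKM at 2 kPa and 13.6, 14.6 and 21.6 FPKM at 25 kPa. Its log2 fold change of -0.64 (SE 0.30, adjusted p = 0.521) shrank to -0.28 without the second library at 2 kPa. SLC7A4, a member of the cationic amino acid family without a settled substrate, measured 3.08, 3.62 and 2.41 FPKM at 2 kPa and 2.01, 2.14 and 1.97 FPKM at 25 kPa. Its groups did not overlap, and the log2 fold change was -0.40 (SE 0.22, adjusted p = 0.586).

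The peptide carriers of the SLC15 family spanned low and middle levels, with SLC15A4, a lysosomal member, between 5.47 and 6.15 FPKM in every library. SLC15A3, a lysosomal carrier of histidine and small peptides, measured 0.13, 0.26 and 0.23 FPKM at 2 kPa and 0.62, 0.47 and 0.25 FPKM at 25 kPa, with overlapping groups. SLC15A2 lay between 0.23 and 0.38 FPKM at 2 kPa and between 0.10 and 0.28 FPKM at 25 kPa. The whole class had a median log2 fold change of -0.08, with 10 genes above 0 and 16 below, beside a median of 0.05 and 59.6% above 0 over all genes. Without the second library at 2 kPa the class median was 0.01, with 13 genes above 0 and 13 below, beside a median of 0.08 over all genes.

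Of 18 genes of the amino acid response, the program that cells start when amino acids are scarce, 13 were in the table and none passed the adjusted threshold. The median log2 fold change was 0.03, with 1 gene higher and 1 lower at an unadjusted p of 0.05. Over all genes, 6.96% were higher and 3.19% lower at that threshold. MTHFD2, a mitochondrial folate enzyme, measured 73.8, 65.8 and 70.1 FPKM at 2 kPa and 84.8, 83.6 and 94.3 FPKM at 25 kPa (log2 fold change 0.32, SE 0.11, adjusted p = 0.353). PSPH, the last enzyme of serine synthesis, had means of 1.73 and 0.94 FPKM (log2 fold change -0.49, SE 0.21, adjusted p = 0.466). The groups overlapped in neither of the pair, and they did not overlap in 16.0% of all genes.

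**Figure D4:**
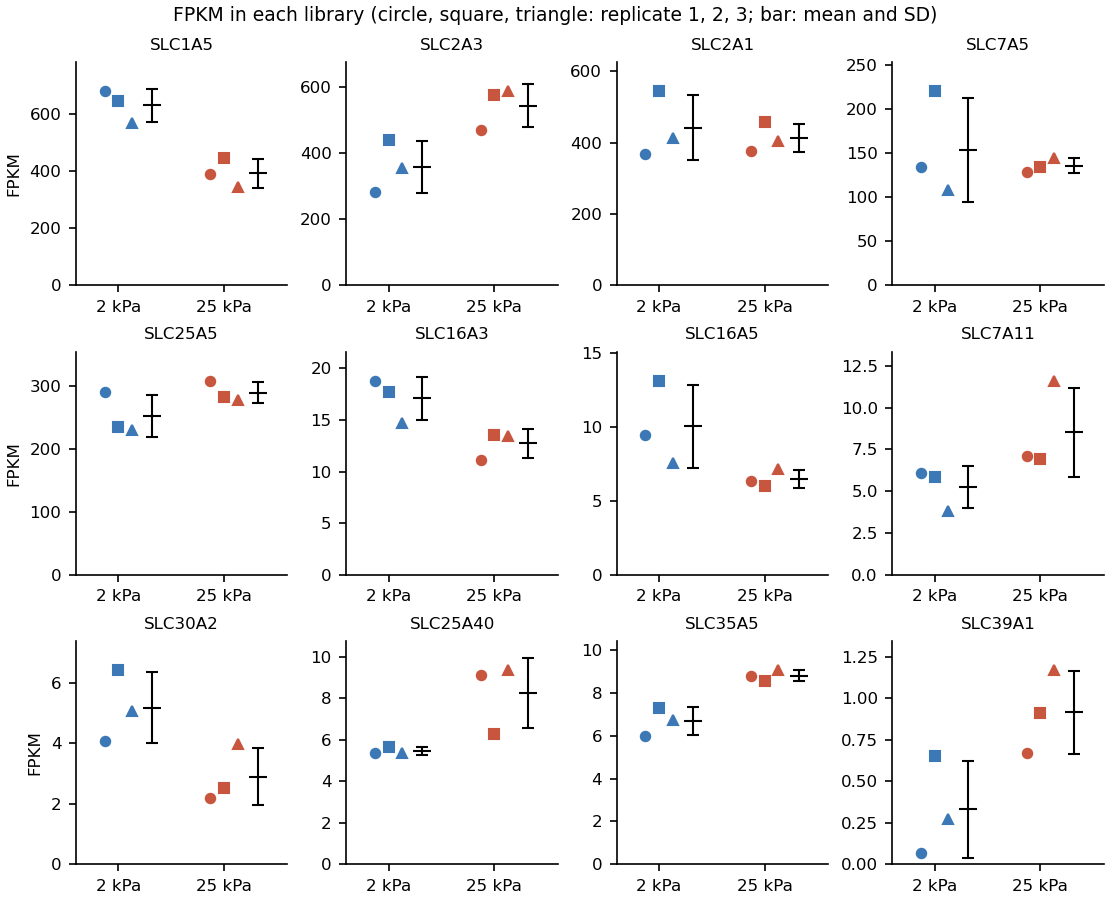
FPKM of 12 SLC genes in each library (y axes from 0), with blue for 2 kPa, red for 25 kPa, circle, square and triangle for replicates 1, 2 and 3, and a black bar for the mean and SD of 3 libraries. SLC2A1, SLC7A5 and SLC25A5 overlap between the stiffnesses, and the other 9 do not.

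The carboxylate carriers, mostly of the SLC16 family, were 6 genes with a median log2 fold change of -0.16. Of these, 5 were below 0, beside 59.6% of all genes above 0. Without the second library at 2 kPa, 4 were below 0 and 2 above, with a median of -0.17. SLC16A3 (MCT4) exports lactate from cells that run on glycolysis. Its values were 18.8, 17.8 and 14.7 FPKM at 2 kPa and 11.1, 13.6 and 13.5 FPKM at 25 kPa. All stiff libraries were below all soft ones, with a log2 fold change of -0.40 (SE 0.14, unadjusted p = 0.0239, adjusted p = 0.400). SLC16A5 (MCT6), a family member that handles some drugs, measured 9.46, 13.1 and 7.59 FPKM at 2 kPa and 6.32, 5.98 and 7.18 FPKM at 25 kPa. It too had no overlap, with a log2 fold change of -0.53 (SE 0.20, unadjusted p = 0.0281, adjusted p = 0.415) that went to -0.34 without the second library at 2 kPa.

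SLC16A1 (MCT1), the lactate carrier of most cells, did not share this pattern of values. It lay between 1.79 and 2.64 FPKM at 2 kPa and between 1.81 and 2.33 FPKM at 25 kPa, with a log2 fold change of -0.02 (SE 0.22, adjusted p = 0.986), or 0.07 without the second library at 2 kPa. SLC16A3 exceeded it in every library, by 6.72 to 8.58 times at 2 kPa and by 4.78 to 7.44 times at 25 kPa, and these ratios overlapped. Whether SLC16A3 and SLC16A1 differed from each other in their response was not tested.

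SLC29A1 (ENT1), which lets nucleosides equilibrate across the plasma membrane, was the 1 nucleoside carrier in the table. It measured 6.34, 4.46 and 3.26 FPKM at 2 kPa and 7.81, 5.08 and 3.97 FPKM at 25 kPa. The groups overlapped, with a log2 fold change of 0.21 (SE 0.28, adjusted p = 0.872). SLC29A2 was not analysed here.

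The mitochondrial SLC25 family was the largest class, with 28 genes and 18 of at least 1 FPKM. Its median log2 fold change was 0.05, the same to 2 decimals as that of all genes, with 17 genes above 0 and 11 below. SLC25A5 (ANT2), which swaps cytosolic ADP for mitochondrial ATP, measured 290.1, 235 and 230.0 FPKM at 2 kPa and 308, 283 and 278 FPKM at 25 kPa. The first soft library lay inside the stiff range, and the log2 fold change was 0.21 (SE 0.14, adjusted p = 0.683). It shrank to 0.02 under 1 of the scalings.

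The related ADP/ATP carriers SLC25A6 and SLC25A4 were far lower, with means of 8.79 and 8.74 FPKM. The first 90 coding bases of the 3 genes (GENCODE 29) show how far apart they are at the level of reads, with capitals at the bases that differ from SLC25A5:
SLC25A5: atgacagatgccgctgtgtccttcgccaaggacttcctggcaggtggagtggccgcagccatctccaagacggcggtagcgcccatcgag
SLC25A6: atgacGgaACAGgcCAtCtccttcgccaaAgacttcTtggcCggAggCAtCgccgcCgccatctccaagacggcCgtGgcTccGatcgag
SLC25A4: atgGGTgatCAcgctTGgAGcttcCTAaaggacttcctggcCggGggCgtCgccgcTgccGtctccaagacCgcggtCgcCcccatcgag

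SLC25A6 differed at 20 and SLC25A4 at 21 of these 90 bases, and over the 894 bases of coding sequence they were 78.7% and 77.2% identical to SLC25A5. SLC25A5 shared 4.57% of its 50-base words with other genes, mostly its own pseudogenes. SLC25A4 lay between 7.14 and 10.2 FPKM, with a log2 fold change of 0.0064 that was -0.12 without the second soft library. SLC25A6 had the largest spread within groups of any SLC gene of at least 1 FPKM, with 2.03, 14.9 and 14.0 FPKM at 2 kPa and 11.5, 4.62 and 5.67 FPKM at 25 kPa. Its log2 fold change of -0.21 (SE 0.60, adjusted p = 0.947) went from -0.99 to 0.20 with 1 library left out, so its direction rests on single libraries.

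SLC25A40, linked to the import of glutathione into mitochondria, measured 5.36, 5.66 and 5.34 FPKM at 2 kPa and 9.13, 6.29 and 9.34 FPKM at 25 kPa. It was the 1 gene of the 28 in the class without overlap between the groups, where 16.0% of all genes had none. Its soft libraries differed by at most 0.32 FPKM. The log2 fold change was 0.50 (SE 0.19, unadjusted p = 0.0249, adjusted p = 0.403). The phosphate carrier SLC25A3 and the oxoglutarate carrier SLC25A11 had nearly equal means at the 2 stiffnesses. SLC25A3 had 13.1 ± 1.22 and 13.3 ± 1.93 FPKM, and SLC25A11 had 33.8 ± 4.55 and 33.7 ± 2.78 FPKM (SD, n = 3), with log2 fold changes of 0.02 and -0.0014 (SE 0.15 and 0.13). That of SLC25A3 was -0.01 without the second soft library.

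Zinc, copper, iron, magnesium and heme are moved by a class of 18 genes, 15 of them with a mean of at least 1 FPKM, and the median log2 fold change was 0.05. SLC30A2 (ZnT2), which loads zinc into vesicles, measured 4.06, 6.41 and 5.07 FPKM at 2 kPa and 2.19, 2.52 and 3.97 FPKM at 25 kPa. The highest stiff library came within 0.09 FPKM of the lowest soft one without crossing it. Its log2 fold change was -0.68 (SE 0.25, unadjusted p = 0.0253, adjusted p = 0.404), close in size to that of SLC1A5 at a far lower level.

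Zinc importers of the SLC39 family showed no common direction. SLC39A1 (ZIP1) measured 0.07, 0.65 and 0.27 FPKM at 2 kPa and 0.67, 0.91 and 1.17 FPKM at 25 kPa, a log2 fold change of 0.54 (SE 0.18, unadjusted p = 0.0162, adjusted p = 0.354). The groups were apart by 0.02 FPKM, and 71.3% of its 50-base words also belong to an overlapping annotated gene, so its level is uncertain. SLC39A6 (ZIP6) was at 8.53, 8.97 and 7.95 FPKM at 2 kPa and at 9.76, 9.49 and 9.57 FPKM at 25 kPa, without overlap and with a log2 fold change of 0.16 (SE 0.14, adjusted p = 0.764). SLC39A7 (ZIP7), which releases zinc from the endoplasmic reticulum, was the most abundant of the class at 26.7 FPKM and had a log2 fold change of 0.07 (SE 0.11, adjusted p = 0.892) that turned negative under 2 of the 3 scalings. SLC39A14 (ZIP14), a carrier of zinc, iron and manganese, had means of 1.62 and 0.907 FPKM and overlapping groups (log2 fold change -0.45, SE 0.24, adjusted p = 0.579).

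SLC30A1, SLC40A1 and SLC31A1 did not separate the groups. SLC30A1 (ZnT1), which removes zinc from the cell, lay between 1.97 and 4.34 FPKM at 2 kPa and between 1.37 and 3.39 FPKM at 25 kPa, with a log2 fold change of -0.21 that went to -0.0029 without the second soft library. SLC40A1 (ferroportin), the iron exporter, stayed between 0.29 and 0.81 FPKM in all libraries, and SLC31A1 (CTR1), which takes up copper, between 7.64 and 12.8 FPKM. SLC48A1, a heme carrier picked out after its values were seen, had the largest log2 fold change of any SLC gene, 0.78 (SE 0.42, adjusted p = 0.582). Its values were 2.62, 2.22 and 9.53 FPKM at 2 kPa and 5.84, 9.96 and 7.34 FPKM at 25 kPa, so the third soft library lay among the stiff ones. The value was 1.32 without that library and 0.47 without the second soft library.

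Carriers of ions and bicarbonate were 12 genes, 6 of them of at least 1 FPKM. None was at an unadjusted p of 0.05 (10.2% of all genes were). The class median was 0.02. SLC12A4 (KCC1), which carries potassium with chloride, was the highest of the class at 7.67 FPKM, with a log2 fold change of 0.02 (SE 0.21, adjusted p = 0.987) that changed sign under all 3 scalings and was 0.14 without the second soft library. SLC26A6, an anion exchanger, followed at 4.62 FPKM (log2 fold change 0.09, SE 0.19, adjusted p = 0.930). SLC12A8 measured 4.24, 5.37 and 4.38 FPKM at 2 kPa and 3.34, 4.15 and 4.23 FPKM at 25 kPa, without overlap but with only 0.01 FPKM between the groups.

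Na,K-ATPase subunits and other proteins that carriers depend on made a list of 18 genes, of which 9 were in the table and none passed the adjusted threshold. At an unadjusted p of 0.05, 1 was higher (6.96% of all genes were). ATP1B1, a beta subunit of the sodium pump, had means of 9.95 and 14.1 FPKM (log2 fold change 0.46, SE 0.19, adjusted p = 0.457), and ATP1B3, a second beta subunit, had 74.3 and 64.3 FPKM (log2 fold change -0.19, SE 0.17, adjusted p = 0.786). The median of the list was -0.03.

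The class set up for nucleotide sugars and acetyl-CoA held 18 genes, all of the SLC35 family, in part without a known substrate and with no acetyl-CoA carrier among them. It had a median log2 fold change of 0.03. SLC35A5 measured 6.01, 7.33 and 6.75 FPKM at 2 kPa and 8.79, 8.56 and 9.07 FPKM at 25 kPa. Every stiff library was above every soft one, and the log2 fold change was 0.35 (SE 0.15, unadjusted p = 0.0433, adjusted p = 0.466). SLC35B2, which brings the sulfate donor PAPS into the Golgi, measured 33.0, 34.0 and 33.6 FPKM at 2 kPa and 32.5, 32.7 and 27.4 FPKM at 25 kPa. The groups did not overlap, yet the log2 fold change was only -0.12 (SE 0.11, adjusted p = 0.801), and -0.04 without the third stiff library. SLC35B1, which supplies ATP to the endoplasmic reticulum, lay between 24.9 and 31.5 FPKM at 2 kPa and between 25.5 and 30.7 FPKM at 25 kPa.

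Among carriers of amines and osmolytes, 7 genes, SLC5A3 was the highest. It brings in myo-inositol, an osmolyte, and measured 74.0, 121 and 63.8 FPKM at 2 kPa and 90.8, 52.7 and 106 FPKM at 25 kPa. The ranges lay over each other, with a log2 fold change of -0.06 (SE 0.29, adjusted p = 0.969) that turned to 0.21 without the second soft library. SLC44A2, a choline carrier, was at 11.6, 15.9 and 9.99 FPKM at 2 kPa and at 16.0, 15.1 and 15.7 FPKM at 25 kPa (log2 fold change 0.32, SE 0.17, adjusted p = 0.572), and the second soft library overlapped the stiff ones, with 0.50 when it was left out. SLC18B1, a vesicular polyamine carrier, had means of 2.24 ± 0.257 and 3.01 ± 0.174 FPKM (SD, n = 3) and no overlap (log2 fold change 0.31, SE 0.20, adjusted p = 0.673). The class median was 0.15, and it went below 0 when the third library at 2 kPa or the first at 25 kPa was left out.

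The fatty acid carriers of the SLC27 family, 5 genes, had a median log2 fold change of 0.16. SLC27A2 (FATP2), which takes up and activates long fatty acids, measured 9.54, 8.11 and 9.13 FPKM at 2 kPa and 9.91, 10.2 and 10.6 FPKM at 25 kPa, without overlap (log2 fold change 0.18, SE 0.14, adjusted p = 0.735). SLC27A4 (FATP4) had overlapping groups with means of 8.32 ± 2.44 and 7.04 ± 1.26 FPKM (SD, n = 3), and its log2 fold change went from -0.19 to 0.0091 without the second soft library.

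The classes of vitamins (6 genes, median -0.03) and of organic anions and cations (10 genes, median 0.02) held 0 genes at an unadjusted p of 0.05. Over all genes, 10.2% were at that threshold. SLC52A2, a riboflavin carrier, and SLC46A1, the proton-coupled folate carrier, were the highest of the vitamin class at 7.59 and 5.66 FPKM, with log2 fold changes of 0.02 (SE 0.30) and -0.31 (SE 0.24). Without the second soft library these were -0.03 and -0.11. SLC22A4 (OCTN1), the ergothioneine carrier, measured 2.72, 2.07 and 2.39 FPKM at 2 kPa and 1.28, 1.94 and 2.04 FPKM at 25 kPa, without overlap (log2 fold change -0.31, SE 0.22, adjusted p = 0.711).

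The 5 genes that are not carriers had log2 fold changes above 0 in the FPKM as deposited, with a median of 0.21, and that of SLC9A3R1 changed sign under all 3 scalings. SLC4A1AP, a partner of an anion exchanger, measured 8.78, 9.77 and 8.47 FPKM at 2 kPa and 11.7, 10.6 and 12.5 FPKM at 25 kPa (log2 fold change 0.33, SE 0.14, unadjusted p = 0.0413, adjusted p = 0.459). SLC9A3R2, a scaffold of sodium-proton exchangers, had no overlap but lay between 0.03 and 0.31 FPKM throughout, with a log2 fold change of 0.21 (SE 0.08, unadjusted p = 0.0242, adjusted p = 0.400). SLC9A3R1 (NHERF1), a second such scaffold, was at 22.2 ± 6.26 and 22.0 ± 2.02 FPKM (SD, n = 3), with a log2 fold change of 0.02 that was 0.23 without the second soft library. SLC2A4RG, a transcription factor, was at 11.5 ± 2.11 and 14.4 ± 2.21 FPKM (SD, n = 3), with overlapping groups.

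**Figure D5:**
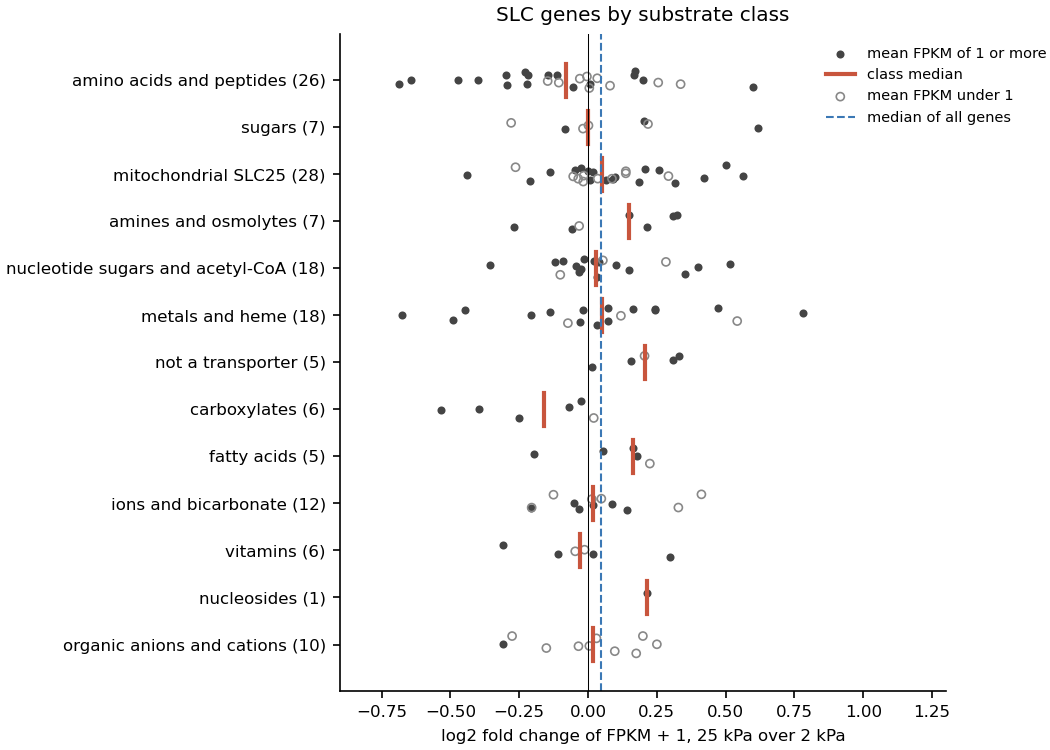
Log2 fold change of FPKM + 1 at 25 kPa over 2 kPa (x axis) for each SLC gene by substrate class (y axis, number of genes in brackets), filled where the mean is at least 1 FPKM and open where it is lower, with a red bar at the class median and a dashed line at the median of all genes. Class medians lie between -0.16 for carboxylates and 0.21 for nucleosides, and the genes of most classes fall on both sides of 0.

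Taken over the classes, the median log2 fold change of the 149 SLC genes was 0.02, beside 0.05 for all genes, and 54.4% were above 0, beside 59.6%. The size of the differences was like that of the table, with a median absolute log2 fold change of 0.15 in both, and 7.38% of SLC genes beyond 0.5 in either direction, beside 7.53% of all genes. Without the second library at 2 kPa the median was 0.09 for the SLC genes and 0.08 for all genes. Carriers of SLC families that go by other symbols were not members. A list of 26 genes was drawn up for these, and it also held TFRC, the transferrin receptor, which is not a carrier. Of the 26, 14 were in the table. At an unadjusted p of 0.05, 1 was lower (3.19% of all genes were). This was SFXN3, a mitochondrial serine carrier, at 15.5 and 10.7 FPKM (log2 fold change -0.49, SE 0.16, adjusted p = 0.347). UCP2, a mitochondrial carrier, had the next lowest p, with 2.56 and 4.61 FPKM (log2 fold change 0.72, SE 0.44, adjusted p = 0.634).

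Levels of 14 SLC genes are uncertain because over 10% of their 50-base words occur in another gene, while 94 of the 149 share none. A second copy annotated under the same gene symbol was not counted. These shares therefore do not cover such copies, for SLC25A6 or any other gene. Besides SLC39A1 and SLC2A3, the largest shares were 87.9% for SLC25A32, 56.3% for SLC25A10, 53.0% for SLC35E2B and 49.3% for SLC35E2. Of the genes named above, SLC2A14 with 24.3% and SLC4A1AP with 10.5% also passed this limit.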

How the data were processed

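RNA of SW480 cells on 2 kPa or 25 kPa hydrogels was sequenced in 3 libraries per stiffness, and libraries were grouped by their GEO titles. The authors normalised the reads to FPKM and deposited 1 value per gene and library, with 2 decimals. The submitters' processing notes name HISAT, StringTie, Bowtie2, RSEM and hg18, without versions or roles, and the design text describes a step for small RNA although the table lists mRNA symbols. No value was 0, and the lowest was 0.01. Low values did not step in whole reads (9.23% of ratios within 0.05 of a whole number), so the depth is unknown. FPKM are not counts, so limma 3.58.1 (R 4.3.3; lmFit, eBayes with trend, two-sided) was run on log2(FPKM + 1) of all 8529 genes, with Benjamini-Hochberg adjustment over all of them. Fold changes on this scale understate those of low genes. In the table, 11 symbols were written as dates.

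The SLC genes, their classes and the other lists were chosen with earlier results of these data known. Named genes were those with mean FPKM of at least 1 and no overlap (8 per direction), the 2 highest per class, the 3 of lowest p per direction under 1 FPKM, and a fixed list of transport genes, of which 18 were analysed and 6 (SLC29A2, SLC12A2, SLC26A3, SLC11A2, SLC20A1 and SLC19A1) were not analysed here. Some results that fall under this rule are not reported here. Any other gene named was chosen after its values were seen, and SLC7A6OS was classed as no carrier at that stage. Words of 50 bases came from GENCODE 29 transcripts, and promoters from RefSeq (GRCh38.p14, 117 SLC genes matched). Python 3.11.15 with pandas 2.3.3, numpy 2.4.6 and matplotlib 3.10.9 was used, and the fit was tested on simulated data. The alternatives tried were a pseudocount of 0.1 or 0.01, a minimum mean of 1 FPKM, 3 scalings, no variance trend, the replicate number as a block, and removal of each library.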

Additional observations from a re-analysis of the deposited data

How the results depend on the processing

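Under each of 14 alternatives, 0 SLC genes passed an adjusted p of 0.05, and the lowest adjusted p was 0.0807, for SLC1A5 with equal library sums. The count higher at an unadjusted p of 0.05, 7 as reported, was 3 with equal library sums and 4 after quantile normalisation or median centring. The count lower, 4 as reported, was 8 after quantile normalisation or median centring. Removal of 1 library at a time gave counts from 3 to 13 higher and from 1 to 7 lower. The replicate number used as a block gave 5 higher and 3 lower, with 3 genes of the whole table past the adjusted threshold in place of 10. Same-numbered libraries deviated together with correlations of 0.115, -0.267 and -0.125, so the numbers do not show a pairing. The number of genes past the adjusted threshold in the whole table was between 3 and 17 over the alternatives. Of the 48 genes named by rule, 30 kept their sign under all 14 alternatives and 18 changed it in at least 1, none of them past the threshold.

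Removal of 1 library at a time gave a median log2 fold change from -0.0263 to 0.0929 for all SLC genes, from -0.034 to 0.272 for amines and osmolytes, from 0.0581 to 0.155 for fatty acids, from -0.0871 to 0.114 for ions and bicarbonate, from -0.0308 to 0.0904 for nucleotide sugars and acetyl-CoA, from -0.0329 to 0.107 for organic anions and cations and from -0.0388 to 0.0752 for sugars. With genes of mean FPKM of at least 1 alone, the median was -0.218 for amino acids and peptides, 0.11 for fatty acids, -0.309 for organic anions and cations, which is then 1 gene, and 0.203 for sugars. With equal library sums it was 0.0652 for fatty acids, -0.0274 for mitochondrial SLC25 genes and -0.0747 for nucleotide sugars and acetyl-CoA. After quantile normalisation it was 0.116 for fatty acids and -0.0421 for nucleotide sugars and acetyl-CoA, and after median centring 0.111 for fatty acids, -0.00299 for mitochondrial SLC25 genes and -0.0508 for sugars. A pseudocount of 0.01 gave -0.269 for carboxylates, 0.332 for the genes that are not carriers and 0.124 for organic anions and cations, and one of 0.1 gave 0.329 for the genes that are not carriers. The other 169 of 196 medians moved by less than the spread between replicates, and the cause of the changes was not tested.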
